A study of Arabidopsis thaliana with 12 samples.

Results

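The 6 libraries compared here were the 3 of the triple mutant *pif145*, which lacks PIF1, PIF4 and PIF5 and keeps PIF3, and the 3 of the single mutant *pif3*, which lacks PIF3 and keeps PIF1, PIF4 and PIF5. They were taken from a series of 12 libraries, in which 3 of the wild type (WT) and 3 of the quadruple mutant *pifq* (*pif1pif3pif4pif5*) served here to show the level with every PIF of the quartet present or absent. All were whole Arabidopsis seedlings, 2 d old, whose seeds had been given 3 h of white light and a 15 min far-red pulse and which then grew without light for 2 d at 21 °C. Read counts came from the 3′ ends of polyadenylated transcripts. The background accession is Col-0, and the alleles in the RNA-seq lines are not given in the sources used here. Each genotype is a single mutant line, so that any other change carried by a line cannot be told apart from the PIF mutations. Which genes have a lower or higher level when PIF3 is missing than when its 3 partners are missing was the question of the comparison.

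PIFs belong to the basic helix-loop-helix family of transcription factors. In the dark they build up and hold the seedling in its etiolated form, with a long hypocotyl, a closed apical hook and small yellow cotyledons. They bind the G-box CACGTG in promoters, and PIF3 is also known to bind the variant CACATG. Light-activated phytochromes bind the PIFs and cause their breakdown, after which growth genes are shut off and photosynthesis genes are turned on. PIF1 is also known as a repressor of seed germination in the dark, acting partly through SOMNUS (SOM) and the DELLA genes.

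Of 18356 loci with enough reads, 173 were higher in *pif145* than in *pif3* (0.942% of those tested) and 278 were lower (1.51%), by edgeR's quasi-likelihood test with the replicate number as a block, a Benjamini-Hochberg adjusted p of at most 0.05 and a change of at least 2-fold. Hereafter, a locus past both limits is said to be called. The loci that were lower included shade and growth genes (*HFR1*, *PIL1*, *XTH15*, *ATHB-2*), genes of dark and sugar starvation (*DIN2*, *DIN6*) and a large part of the seed maturation programme (*CRA1*, *EM1*, *HIS1-3*). The loci that were higher included the major light-harvesting antenna genes, chalcone synthase (*CHS*), the early light-induced gene *ELIP2* and *QQS*. Without the block, 32 loci were called higher and 116 lower. The calls leaned to scarce transcripts on the higher side, where 129 of the 173 loci had a mean under 5 CPM in both genotypes (CPM are counts scaled to a common library size), against 131 of the 278 on the lower side. The libraries of the genotypes did not overlap at 391 of the 451 called loci, and 447 moved the same way in all 3 replicate numbers. Both counts describe the libraries that made the calls, so they are no separate support for them. The same counts over all loci are not given here. At 15364 loci, 83.7% of those tested, the 95% interval of the log2 change lay within 2-fold in either direction.

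**Figure D1:**
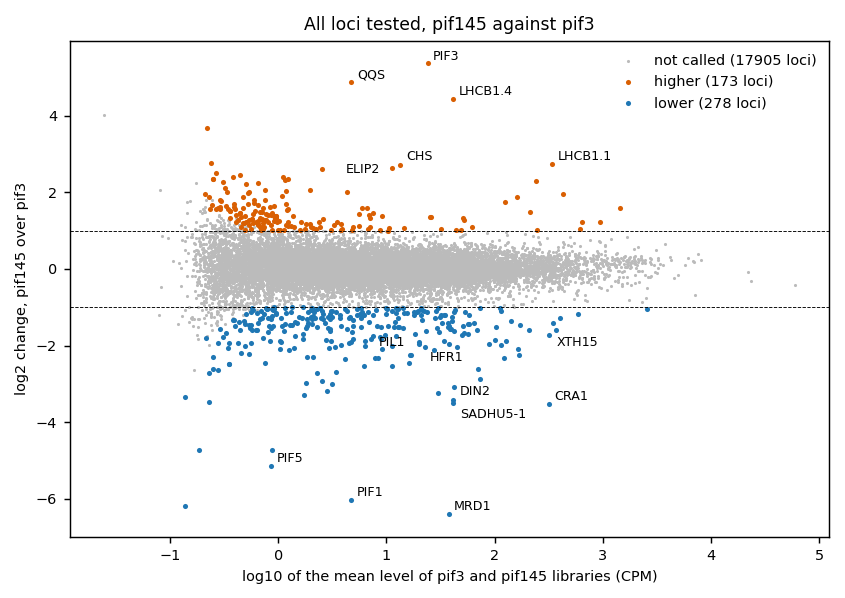
Log2 change of *pif145* over *pif3* for all 18356 loci tested, against the mean level of the 6 libraries on a log10 scale of CPM. Orange points are the 173 loci called higher, blue points the 278 called lower, grey points the rest, and dashed lines mark 2-fold; the lower loci reach further to the right, at high levels.

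Sequences that carry the G-box, which all members of the quartet bind, are shown for genes whose level differed between the mutants. CACATG is marked as well, as a motif of PIF3. The probes below were designed by the study for binding assays with PIF3 in vitro, and each was found without mismatch in the TAIR10.1 assembly. PIL1 probe a lay at chr2:19298936-19298961 and PIL1 probe b at chr2:19299054-19299090, 1078 and 1196 bases upstream of the annotated start of *PIL1*, and both matched the minus strand, on which the gene lies. The *ATHB-2* probe lay at chr4:9443412-9443448, 5666 bases upstream of the gene. Capitals mark CACGTG and CACATG.
PIL1 probe a: tctttccgctCACGTGggccttttgt
PIL1 probe b: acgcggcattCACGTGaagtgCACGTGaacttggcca
ATHB-2 probe: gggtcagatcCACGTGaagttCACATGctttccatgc
Stretches from the promoters of a gene lower and a gene higher in *pif145* are shown next, for *DIN6* (chr3:17441553-17441638, minus strand) and *CHS* (chr5:4488226-4488288, plus strand), which hold the G-box within 250 bases of their annotated start (RefSeq, TAIR10.1). Neither gene is among the loci that the study lists as bound by PIF3.
DIN6 promoter: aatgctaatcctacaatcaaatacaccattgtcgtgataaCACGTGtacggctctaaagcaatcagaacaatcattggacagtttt
CHS promoter: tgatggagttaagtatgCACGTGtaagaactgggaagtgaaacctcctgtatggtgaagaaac
In promoters reaching from 250 bases before to 50 after the start, CACGTG was present in 81 of 278 loci lower in *pif145* (29.1%), in 19 of 172 loci higher (11%) and in 1657 of all 18306 tested (9.05%). CACATG, searched on both strands, was present in 20.1%, 15.7% and 13.0% of the same sets. CACGTG reads alike on both strands and is also the core of sites bound by bZIP factors of the abscisic acid response. These matches describe letters in a window and no binding.

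The mutated genes were read first, as a check of the labels. *PIF3* stood at 0.688, 1.71 and 1.02 CPM in the *pif3* libraries and at 35.95, 58.6 and 46.1 CPM in the *pif145* libraries, a log2 difference of 5.36 ± 0.14 (SE; adjusted p = 3.44e-15, edgeR). *PIF1* was at 9.90, 9.37 and 8.65 CPM in *pif3* and at 0.124, 0.160 and 0.150 CPM in *pif145*, a log2 difference of -6.02 ± 0.20. *PIF5* was scarcer, at 1.495, 1.73 and 1.80 CPM against 0.0495, 0.0401 and 0.0376 CPM (log2 -5.14 ± 0.44). These genes separated the genotypes as labelled, with no overlap of libraries. *PIF4* did not: its 3′ reads gave 7.27, 4.79 and 2.97 CPM in *pif3* and 6.01, 6.21 and 4.36 CPM in *pif145*, and the log2 difference of 0.18 had a 95% interval from -0.22 to 0.58. A 3′ tag outside the disrupted part of a gene would not report the mutation, and the position of the disruption is not given in the sources used here, so that *PIF4* checks nothing.

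**Figure D2:**
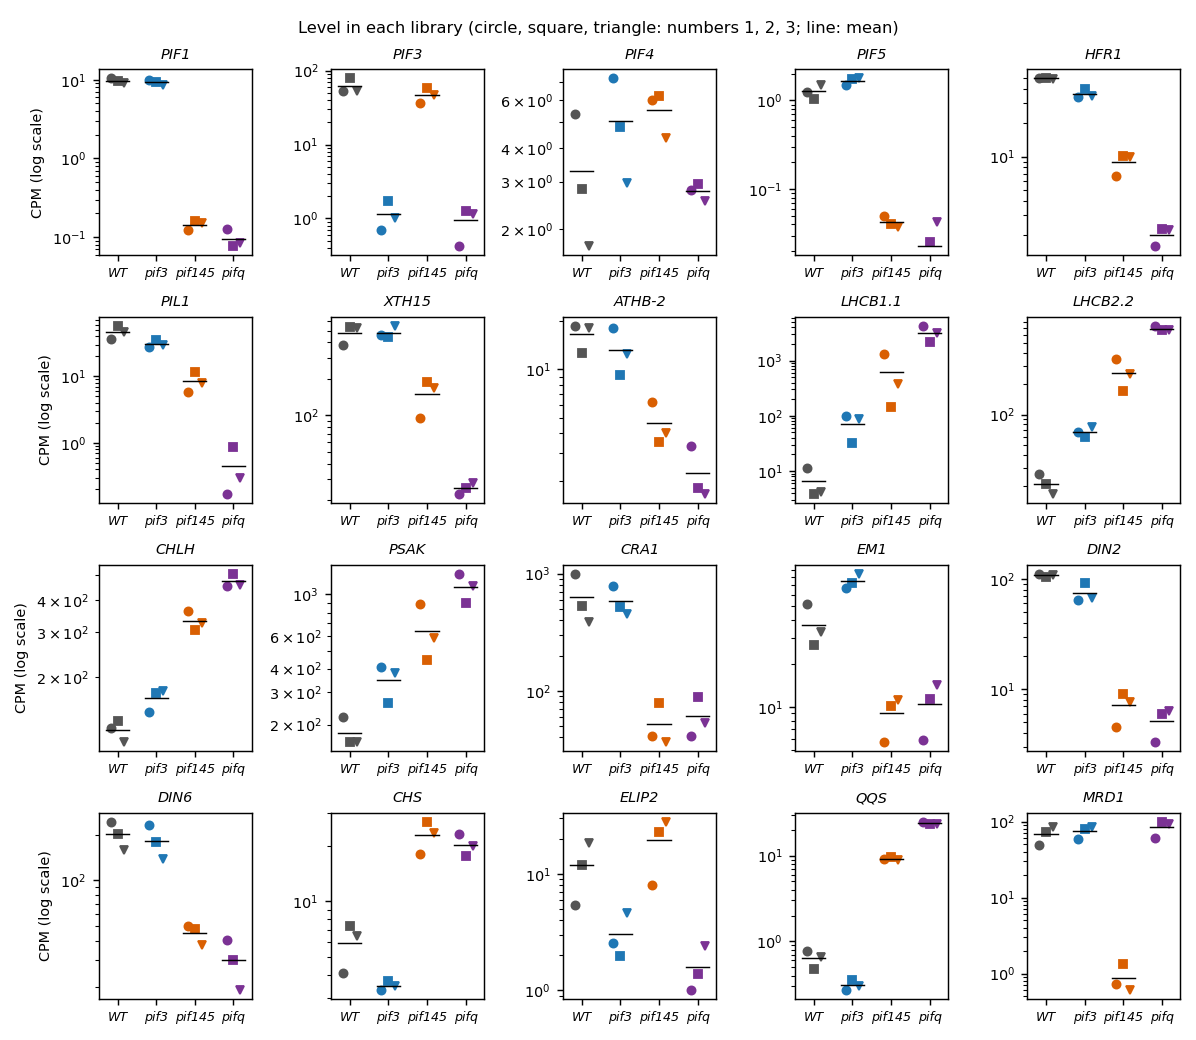
CPM of 20 genes in each library, on log axes, for WT, *pif3*, *pif145* and *pifq*; circle, square and triangle are replicate numbers 1, 2 and 3 and the line is the mean. *PIF1* and *PIF5* are lost in *pif145* and *PIF3* in *pif3*, *HFR1*, *PIL1* and *XTH15* step down from *pif3* to *pif145* to *pifq*, and *MRD1* is low in *pif145* alone; a *PIF5* level of 0 in 1 *pifq* library is not drawn.

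Genes of the shade and growth response were lower in the mutant lacking PIF1, PIF4 and PIF5. Of 17 tested PIF relatives and helix-loop-helix growth regulators, 3 were called lower and 0 higher, with a median log2 change of -0.43, beside 0.002 over all loci. *HFR1*, an atypical helix-loop-helix protein that holds PIFs off DNA, was at 34.1, 39.8 and 34.2 CPM in *pif3* and at 6.71, 10.2 and 9.96 CPM in *pif145* (log2 -2.03 ± 0.11, adjusted p = 1.8e-10). Its WT mean was 49.8 CPM and its *pifq* mean 2.02 CPM. The *pif3* level was thus somewhat below WT (log2 -0.47 ± 0.10), *pif145* was further below (log2 -2.50 ± 0.11) and *pifq* was lowest. *PIL1*, a PIF-like gene used as a reporter of shade, was at 27.8, 35.8 and 30.1 CPM against 5.89, 11.9 and 7.89 CPM (log2 -1.92 ± 0.12). The WT mean of *PIL1* was 47.1 CPM, above *pif3* as well (log2 -0.58 ± 0.11 for *pif3* over WT). In *pifq*, *PIL1* was at 0.443 CPM on average, so that most of the transcript left in *pif145* was absent once PIF3 was also missing. *PIF6* fell from 3.65, 3.67 and 2.31 CPM to 0.247, 0.481 and 0.564 CPM (log2 -2.96 ± 0.32). *PRE5*, which promotes cell elongation, passed the adjusted p at log2 -0.74 ± 0.10, short of 2-fold.

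Among 14 tested HD-Zip and other shade-induced genes, 5 were called lower and 0 higher, the median log2 change was -0.57, and all 14 estimates lay below 0. *XTH15*, which encodes a xyloglucan-modifying enzyme of the cell wall, was at 457, 443 and 550 CPM in *pif3* and at 94.4, 189 and 169 CPM in *pif145* (log2 -1.73 ± 0.12, adjusted p = 1.44e-08). Its WT mean of 482 CPM lay beside that of *pif3* (483 CPM), and its *pifq* mean was 24.9 CPM. *ATHB-2*, the homeodomain-leucine zipper gene known for its rapid rise in shade, was at 18.1, 9.19 and 12.6 CPM against 6.29, 3.52 and 3.98 CPM (log2 -1.52 ± 0.13). The sulfotransferase gene *ST2A* differed by -1.39 ± 0.16. *FHL* and *ATHB4*, both under 1 CPM in these genotypes, were the other 2 called. Only 3 members of the list were called without the block, with a term for the sequencing platform in its place, from the 6 libraries alone, by DESeq2, by a test against a minimum change of 1.5-fold (minimum-fold test) and among loci of at least 5 CPM. The same count of 3 was found when both libraries numbered 1 or 2 were left out together, or the *pif145* library numbered 1 or 2 or the *pif3* library numbered 1 alone.

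The auxin genes moved less. Of 24 tested Aux/IAA genes, which encode auxin-labile repressors, 1 was called lower and 1 higher, and the median was -0.04. *IAA29*, a shade-responsive member, was at 14.0, 12.3 and 8.32 CPM in *pif3* and at 4.78, 3.12 and 2.56 CPM in *pif145* (log2 -1.74 ± 0.13, adjusted p = 3.26e-08), although its adjusted p was 0.0641 without the block. *IAA19*, *IAA3* and *IAA7* passed the adjusted p at -0.77, -0.51 and -0.51, short of 2-fold. *IAA5*, the member called higher, was at 0.552 CPM on average in *pif3* and 1.38 CPM in *pif145*, and 0 members were called higher without the block. Of 31 expansin and XTH genes in their list, 2 were called higher and 1 lower. *XTH15*, counted above with the shade-induced genes and called lower there, is not in this list. *XTH7* was at 18.5, 11.9 and 12.4 CPM in *pif3* and 52.3, 27.6 and 31.5 CPM in *pif145* (log2 1.37 ± 0.09), and *XTH32* at 12.1, 14.2 and 16.2 CPM against 25.7, 40.05 and 44.1 CPM (log2 1.35 ± 0.12). In both genes every *pif145* library was above every *pif3* library. *EXPA4*, an expansin that loosens walls, was the gene of this list called lower (log2 -1.02 ± 0.11). Its change fell short of 2-fold without the *pif145* library numbered 1 or 3 or the *pif3* library numbered 3 (-0.98, -0.98 and -0.96). Without the block its adjusted p was 0.0612 (edgeR). The WT mean of *EXPA4* (8.45 CPM) lay beside that of *pif145* (8.08 CPM), and the *pif3* mean was 16.4 CPM.

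Genes bound by PIF3 in the study's chromatin immunoprecipitation leaned to the lower side. Of 670 such loci that were tested, 30 were called lower in *pif145* (4.48%, beside 1.51% of all loci) and 1 was called higher (0.149%, beside 0.942%), and the median log2 change was -0.156. *HFR1*, *PIL1*, *PIF6*, *XTH15*, *ATHB-2*, *ST2A* and *IAA29* are among the 30. By the definition of the call, the level of these 30 genes was lower in the mutant that keeps PIF3 than in the mutant that lacks it. *CYS2*, a cystatin gene, was at 102.4 CPM in *pif3* and 34.2 CPM in *pif145* (log2 -1.59 ± 0.10), and *AFP3*, a gene of the ABI5-binding protein family, at 57.4 against 26.5 CPM (log2 -1.12 ± 0.09). G-boxes were present in 7 of these 30 promoter windows (23.3%), beside 29.1% of all 278 lower loci and 9.05% of all tested loci. The bound lower loci thus held the G-box in a smaller share than the lower loci in general. CACATG was present in 3 of the 30 windows, beside 20.1% of the lower loci and 13.0% of all tested loci. The study's list of bound genes kept only binding sites that hold CACGTG or CACATG, so these shares come from a set chosen for these motifs. The 1 locus called higher, *AT2G34185*, had means of 0.242 and 0.567 CPM.

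Photosynthesis genes were higher in *pif145*. Antenna genes encode the chlorophyll-binding proteins that collect light for the photosystems. Of 21 tested, 10 were called higher and 0 lower, with a median log2 change of 0.84, and their summed level was 3829 to 6474 CPM in the *pif3* libraries and 7255 to 14324 CPM in the *pif145* libraries. Without the block 6 were called, and the calls of *LHCB1.1* and *LHCB1.2* were among those lost (adjusted p = 0.0801 and 0.0747, edgeR). *LHCB2.2* was at 67.7, 60.5 and 75.3 CPM in *pif3* and 349, 172 and 249 CPM in *pif145* (log2 1.88 ± 0.14, adjusted p = 2.39e-08). Every *pif145* library was above every *pif3* library, while WT had a mean of 21.1 CPM and *pifq* of 698 CPM. *LHCB3* was at 125, 92.4 and 112 CPM against 472, 212 and 272 CPM (log2 1.48 ± 0.13). *LHCB1.1* was at 98.3, 32.3 and 87.0 CPM against 1319, 143 and 372 CPM (log2 2.74 ± 0.28). The *pif145* library numbered 1 carried much of that difference, which was 2.14 without it. *LHCB1.4* was at 2.84, 1.78 and 3.78 CPM against 179.5, 9.45 and 50.3 CPM (log2 4.44 ± 0.53), and its difference was 3.2 without the *pif145* library numbered 1 and 5.10 without that numbered 2. The *LHCB1* and *LHCB2* genes share stretches of sequence, so that reads can be lost to or split between copies: 63.7% of the 36-base windows in the 3′ 500 bases were unique for *LHCB2.2*, 78.7% for *LHCB1.2* and 91.0% for *LHCB1.4*. In whole seedlings, more cells of a type and more RNA per cell cannot be told apart.

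Photosystem and electron transport genes moved together by smaller steps. All 30 tested estimates lay above 0, the median was 0.57, and 27 passed the adjusted p, but 0 reached 2-fold. *PSAK*, a photosystem I subunit, was at 406, 261 and 377 CPM in *pif3* and 885, 443 and 585 CPM in *pif145* (log2 0.84 ± 0.10), with a WT mean of 181 CPM. *PSAH2* differed by 0.92 ± 0.11. It passed 2-fold without the *pif145* library numbered 2 (1.028) or the *pif3* library numbered 3 (1.048), and 2 members of the list were called in each case. Of 28 chlorophyll and heme synthesis genes, 22 passed the adjusted p on the higher side and 2 were called. These were *CHLH*, a subunit of magnesium chelatase, at 146, 172 and 176 CPM against 362, 305 and 326 CPM (log2 1.01 ± 0.09), and *GUN4*, its activator (log2 1.026 ± 0.11). Both lie close to 2-fold, and both fell short of it without the *pif145* library numbered 1 (0.91 and 0.94). Of 18 carbon fixation genes, 10 passed the adjusted p on the higher side, 0 were called, and the median was 0.32. *RCA*, the activator of Rubisco, was at 494 CPM on average in *pif3* and 746 CPM in *pif145* (log2 0.59 ± 0.09).

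Flavonoid synthesis had 3 of 11 tested genes called higher and 0 lower, with a median of 0.87. Leaving out the library numbered 3 raised the count to 5 for *pif145*, 5 for *pif3* and 6 for both. *CHS*, the first enzyme of the pathway, was at 3.29, 3.69 and 3.45 CPM in *pif3* and 18.2, 27.1 and 23.6 CPM in *pif145* (log2 2.71 ± 0.17, adjusted p = 1.68e-09). WT was at 4.101, 7.38 and 6.46 CPM and so lay between the mutants in each replicate number. *FLS1*, flavonol synthase, was at 3.35, 4.00 and 4.87 CPM against 9.90, 11.3 and 11.8 CPM (log2 1.45 ± 0.13). *MYB75*, a regulator of anthocyanin synthesis, was called at a mean of 0.420 CPM in *pif145* and 0.0569 CPM in *pif3*.

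**Figure D3:**
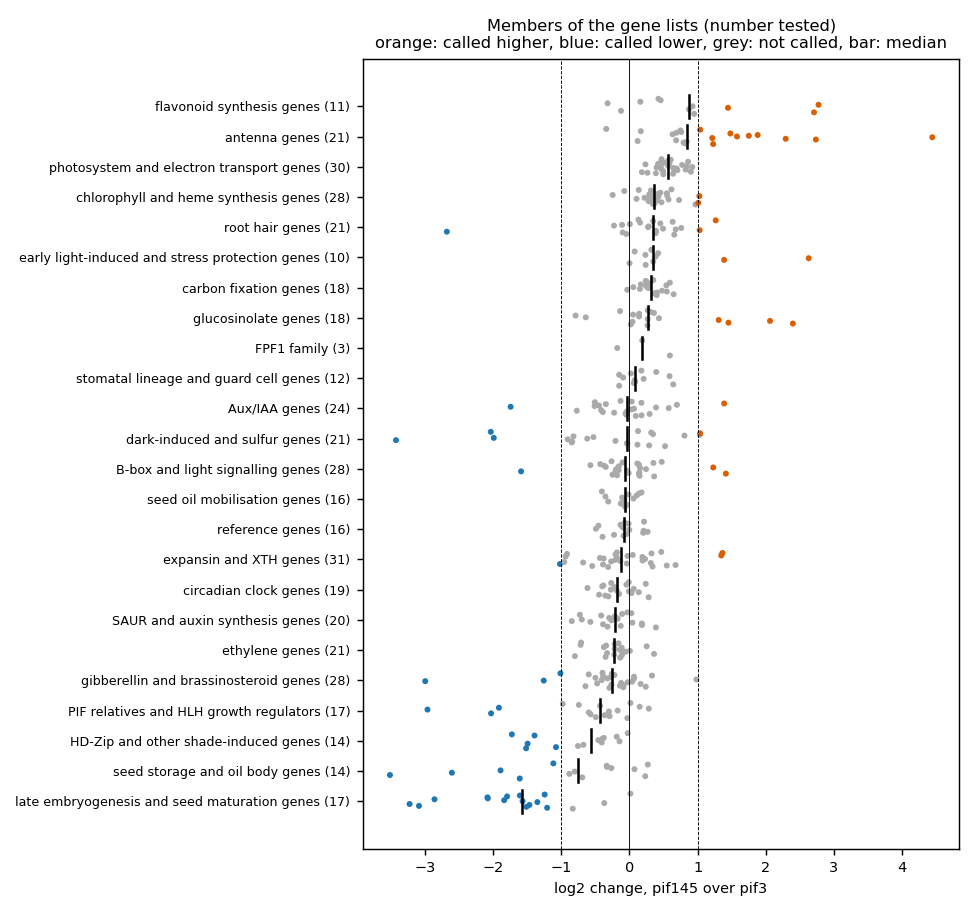
Log2 change of *pif145* over *pif3* for each tested member of 24 gene lists, ordered by the list's median, which is the vertical bar. Orange and blue points passed an adjusted p of 0.05 and 2-fold; the antenna, flavonoid and photosystem lists lie to the right of 0 and the seed and shade lists to the left.

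The seed programme was lower in *pif145*. Late embryogenesis and seed maturation genes encode the desiccation-tolerance proteins of the ripe seed and their regulators. Of 17 tested, 14 were called lower and 0 higher, and the median log2 change was -1.57. *EM1*, an embryo protein, was at 67.0, 73.0 and 84.5 CPM in *pif3* and at 5.67, 10.2 and 11.2 CPM in *pif145* (log2 -3.09 ± 0.25, adjusted p = 6.01e-08). *HIS1-3*, a stress-inducible linker histone, was at 47.9, 54.1 and 60.2 CPM against 4.13, 6.57 and 6.99 CPM (log2 -3.23 ± 0.23). *SOM*, a zinc-finger repressor of germination known as a PIF1 target, was at 78.5, 66.2 and 44.2 CPM against 20.4, 23.5 and 17.2 CPM (log2 -1.61 ± 0.10). *RAB18* and *ABI5*, an abscisic acid responsive dehydrin and the bZIP factor of that response, differed by -2.08 and -1.21. In *pifq* the mean of *EM1* was 10.4 CPM, of *HIS1-3* 5.40 CPM and of *SOM* 22.1 CPM, each beside its *pif145* mean (9.01, 5.90 and 20.4 CPM). Part of the gap was a rise in *pif3* for *EM1* and *SOM* (log2 0.99 ± 0.22 and 0.59 ± 0.10 over WT). In *pif145* they were below WT by -2.10 ± 0.25 and -1.02 ± 0.10. *HIS1-3* was near WT in *pif3* (log2 0.03 ± 0.19). The list summed to 1057, 604 and 674 CPM in WT, 1292, 1324 and 1295 CPM in *pif3* and 317, 482 and 418 CPM in *pif145*.

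Of 14 tested seed storage and oil body genes, 5 were called lower and 0 higher, with a median of -0.75, and 3 were called lower without the block. *CRA1*, a cruciferin storage protein, was at 791, 517 and 450 CPM in *pif3* and 41.2, 79.5 and 36.4 CPM in *pif145* (log2 -3.52 ± 0.28, adjusted p = 6.08e-08). *CRU3*, another cruciferin, was at 178, 80.7 and 104 CPM against 19.1, 23.5 and 14.1 CPM (log2 -2.61 ± 0.29). *OLEO2*, which coats oil bodies, was at 207, 196 and 193 CPM against 40.2, 69.5 and 53.1 CPM (log2 -1.89 ± 0.22). Over the 8 tested of 9 seed markers, the summed level was 865 to 1280 CPM in the *pif3* libraries and 143 to 254 CPM in the *pif145* libraries. Of the 8, 4 were called lower, and their log2 changes ran from -3.52 to 0.27. In the list of 14, 3 estimates lay above 0. The marker sums include the abundant *CRA1*, *CRU3* and *OLEO2* named above, so they do not show a drop in every marker. Left-over RNA of the seed would enter these sums, and its part in the difference was not tested. The 16 genes of seed oil mobilisation, among them isocitrate lyase (*ICL*), had 0 calls and a median of -0.07. Of the other tissues checked, 0 of 6 root hair markers and 0 of 3 tested guard cell markers were called, with summed levels of 36.4 to 42.8 against 39.9 to 54.8 CPM and of 12.9 to 18.0 against 15.1 to 17.1 CPM.

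Gibberellin genes were called on the lower side alone. *GA20OX3*, an enzyme of gibberellin synthesis, was at 5.26, 6.11 and 5.50 CPM in *pif3* and 1.01, 0.681 and 0.338 CPM in *pif145* (log2 -2.997 ± 0.23). *RGL2*, the DELLA repressor best known in seeds, was at 38.5, 44.0 and 36.9 CPM against 17.2, 23.1 and 19.1 CPM (log2 -1.01 ± 0.09), close to 2-fold and short of it without the *pif145* library numbered 1 (-0.94). The WT mean of *RGL2* was 21.7 CPM, so that *pif145* stood near WT (log2 -0.145 ± 0.09) and *pif3* above it (log2 0.87 ± 0.09). *GA2OX2* was called at -1.26 ± 0.26, and these were the 3 calls, all lower, of 28 gibberellin and brassinosteroid genes (median -0.26).

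Of 21 tested genes of darkness and sulfur supply, 3 were called lower and 1 higher, with 12 estimates below 0, 9 above and a median of -0.04. *DIN2*, a beta-glucosidase induced in the dark, was at 64.7, 92.7 and 67.1 CPM in *pif3* and 4.55, 9.09 and 7.74 CPM in *pif145* (log2 -3.43 ± 0.16, adjusted p = 2.21e-11). *DIN6*, the asparagine synthetase induced by sugar starvation, was at 230, 180 and 137 CPM against 49.96, 47.9 and 37.8 CPM (log2 -1.99 ± 0.09). *SULTR2;1*, a sulfate transporter, was at 68.2, 79.2 and 69.7 CPM against 13.3, 22.6 and 18.2 CPM (log2 -2.04 ± 0.12). In all 3 the libraries were far apart. The gene called higher was *SULTR1;1*, a root sulfate transporter, at means of 1.48 and 3.04 CPM. Its call was lost without the block, by the minimum-fold test, and without the *pif145* library numbered 2 or the *pif3* library numbered 2 or 3.

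WT and *pifq* place these differences. The mean log2 level of WT was nearer to *pif3* than to *pif145* at 143 of the 173 higher loci (82.7%) and at 216 of the 278 lower loci (77.7%), beside 67.2% of all loci. The *pifq* level was nearer to *pif145* at 157 of the higher loci (90.8%) and at 256 of the lower loci (92.1%), beside 72.6% of all loci. At most called loci, then, WT lay on the side of *pif3* and *pifq* on the side of *pif145*. In 143 of the 173 higher loci, *pifq* was above WT in all 3 replicate numbers (82.7%, beside 31.9% of all loci). In 201 of the 278 lower loci, *pifq* was below WT in all 3 (72.3%, beside 35.0%). Called loci were chosen for a gap of at least 2-fold between the mutants. The shares over all loci, here and below, are therefore no like comparison, and no conclusion is drawn from the excess.

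**Figure D4:**
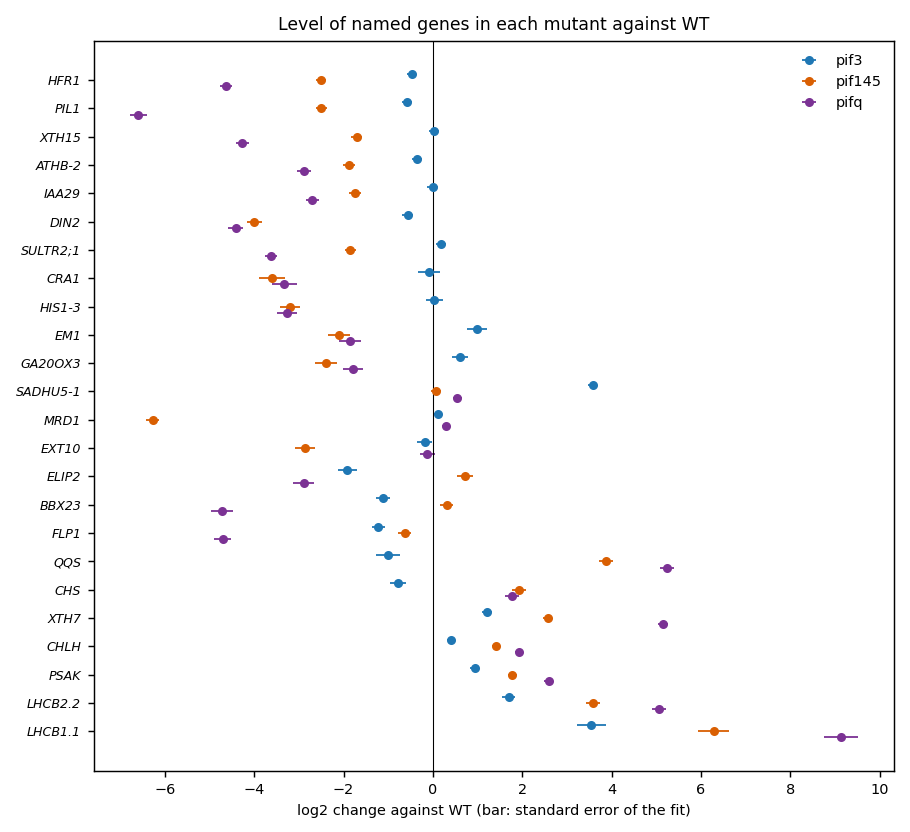
Log2 change against WT of 24 named genes in *pif3*, *pif145* and *pifq*, from the same fit, with the standard error as a bar. From *HFR1* to *IAA29* the *pif145* point lies between *pif3* and *pifq*, for *ELIP2* and *BBX23* it is *pif3* that lies nearer to *pifq*, and for *MRD1* and *EXT10* *pif145* alone is low; the 3 changes share their WT libraries.

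The opposite arrangement, a gene low without the quartet and lower in *pif3* than in *pif145*, was rare. It held at 11 of the 173 higher loci (6.36%), while *pifq* was below WT in all 3 numbers at 35.0% of all loci. Of the 11, 3 had a mean of at least 5 CPM: *PIF3* itself, *ELIP2* and *BBX23*. *ELIP2*, a chlorophyll-binding protein of early greening, was at 2.54, 1.96 and 4.66 CPM in *pif3* and 8.02, 22.9 and 28.1 CPM in *pif145* (log2 2.63 ± 0.21, adjusted p = 3.65e-08). Its WT level was 5.39, 11.9 and 18.3 CPM and its *pifq* level 1.00, 1.37 and 2.42 CPM, so that both genotypes without PIF3 were low. *BBX23*, a B-box factor of light signalling, was at 3.89, 2.09 and 5.44 CPM against 7.77, 8.01 and 14.4 CPM (log2 1.42 ± 0.16, and adjusted p = 0.166 without the block). In *pifq* it was at 0.167, 0.178 and 0.595 CPM. *HYH*, a bZIP factor related to HY5, was at 1.85, 1.12 and 1.26 CPM against 4.97, 2.60 and 2.40 CPM (log2 1.23 ± 0.21), and fell short of 2-fold without the *pif145* library numbered 1 (0.98). *ELIP1*, the close relative of *ELIP2*, had means of 0.490 and 1.41 CPM. *FLP1*, of the FPF1 family, had means of 21.8 CPM in *pif3*, 33.1 CPM in *pif145* and 2.05 CPM in *pifq* (log2 0.59 ± 0.15, not called). Unlike in *ELIP2* and *BBX23*, its *pif145* level was below WT (51.3 CPM) in all 3 numbers.

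The mirror arrangement, *pifq* above WT in all 3 numbers and *pif3* higher than *pif145*, held at 13 of the 278 lower loci (4.68%). Over all loci, *pifq* was above WT in all 3 numbers at 31.9%. Of the 13, 7 had a mean of at least 5 CPM, among them *EXPA4* and, described below, *MRD1* and *SADHU5-1*. In *MRD1* and *SADHU5-1* the *pifq* means (84.4 and 9.26 CPM) lay near those of WT (68.8 and 6.26 CPM). Not every member of the class was thus high without the quartet. *AT3G15670*, a late embryogenesis abundant protein gene, was at 229, 362 and 344 CPM in *pif3*, 61.0, 127 and 134 CPM in *pif145* and 59.0, 49.1 and 69.0 CPM in WT (log2 -1.59 ± 0.19, and adjusted p = 0.088 without the block). *LEA4-5* and *LEA7* had *pif3* means of 203.5 and 59.1 CPM and *pif145* means of 82.3 and 20.1 CPM, beside WT means of 56.6 and 18.2 CPM. In these genes *pif3* stood farther from WT than *pif145* did in all 3 numbers, while *AT3G15670* was above WT in *pif145* too (log2 0.77 ± 0.19 over WT). *AT5G66780* and *CBSX4* were likewise called lower with *pif3* farther from WT, but *pifq* was not above WT in every number. *AT5G66780* was at 416, 714 and 521 CPM in *pif3*, 113, 244 and 202 CPM in *pif145* and 206.6, 179 and 183 CPM in WT, with 155, 277 and 295 CPM in *pifq*. *CBSX4*, a cystathionine beta-synthase domain protein gene, was at 10.14, 7.31 and 5.38 CPM against 2.65, 2.24 and 1.503 CPM (log2 -1.84 ± 0.31, and adjusted p = 0.114 without the block), with means of 2.55 CPM in WT and 2.69 CPM in *pifq*.

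A few differences were large in 1 mutant line and were not shared at that size by *pifq*, which carries mutations in the same genes. *MRD1*, a transcript named for its fall in a methionine over-accumulating mutant, was at 58.1, 80.9 and 83.7 CPM in *pif3* and at 0.718, 1.32 and 0.601 CPM in *pif145* (log2 -6.39 ± 0.15, adjusted p = 3.6e-16). In *pifq* it was at 60.9, 99.7 and 92.7 CPM, as high as in WT (49.0, 73.4 and 84.1 CPM). *HEI10*, whose annotated span (chr1:19963267-19966952, TAIR10.1) overlaps that of *MRD1* (chr1:19963047-19964712) on the opposite strand, was also called lower, at a mean of 4.28 CPM in *pif3* and 1.495 CPM in *pif145* (log2 -1.54), and was named here after its values were seen. Its WT mean was 5.83 CPM and its *pifq* mean 3.245 CPM, below WT in every number, so that *pifq* lay between WT and *pif145*. *EXT10*, an extensin of root hair walls, was at 6.43, 5.37 and 6.01 CPM against 0.742, 1.44 and 0.676 CPM (log2 -2.68 ± 0.23), with 4.39, 7.496 and 6.67 CPM in *pifq*. On the other side, *SADHU5-1*, a non-coding retrotransposon, was at 38.8, 65.0 and 122 CPM in *pif3* and at 2.97, 6.09 and 11.3 CPM in *pif145* (log2 -3.50 ± 0.10), and WT and *pifq* had means of 6.26 and 9.26 CPM. Only 64.5% of its 3′ windows were unique in the transcriptome. *AT5G37940*, a zinc-binding dehydrogenase gene, was at 2.24, 1.4 and 1.53 CPM against 9.65, 4.65 and 6.65 CPM (log2 2.00 ± 0.18), beside 2.29 CPM on average in *pifq*. Its *pifq* level was above WT in all 3 numbers (log2 0.65 ± 0.21), by less than in *pif145* (2.22 ± 0.19). Only 75.5% of its 3′ windows were unique, and *AT5G38000*, which shares some of them, was also called higher (log2 1.02).

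Other genes among the largest changes had *pifq* on the side of *pif145*. *QQS*, a small gene known for its effect on starch, was at 0.269, 0.356 and 0.3003 CPM in *pif3* and 9.08, 9.57 and 8.90 CPM in *pif145* (log2 4.86 ± 0.18, adjusted p = 2.94e-13), with 24.8, 23.1 and 23.4 CPM in *pifq*. *AT4G23680*, of the polyketide cyclase and lipid transport superfamily, was at 138, 191 and 192 CPM against 509, 790 and 742 CPM (log2 1.96 ± 0.07). *AT4G28780*, a GDSL-type lipase gene, was at 2.72, 2.55 and 3.42 CPM against 13.6, 5.17 and 7.96 CPM (log2 1.59 ± 0.18). On the lower side, *AGL67*, a MADS-box factor, was at 6.52, 5.86 and 2.97 CPM against 0.520, 0.681 and 0.526 CPM (log2 -3.19 ± 0.23), and the embryo gene *M17* at 159, 128 and 101 CPM against 22.2, 19.7 and 12.3 CPM (log2 -2.86 ± 0.20).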

How the data were processed

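Whole-seedling polyadenylated RNA was sequenced as directional 3′-end libraries, 3 per genotype, from biological triplicates. The authors deposited raw read counts per locus: per the paper's methods, reads were aligned with Bowtie without mismatches to the TAIR transcriptome, and those mapping uniquely to the 3′ 500 bases of the coding strand were counted. The submitters' processing notes name Bowtie 0.12.7, CASAVA 1.7.0 and TAIR 10. Replicate 1 was run on another sequencer than replicates 2 and 3, so number and platform overlap. Totals ran from 23907577 to 41247734 counts per library, over 33602 loci. No row was nameless and no column belonged elsewhere.

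Counts of all 12 libraries were filtered (filterByExpr), scaled by TMM and fitted with edgeR 4.0.16 (R 4.3.3) by genotype plus replicate number, and *pif145* minus *pif3* was tested by quasi-likelihood. CPM are counts scaled to library size. The numbers pair the samples: deviations of same-numbered *pif3* and *pif145* libraries correlated at 0.50 to 0.63 across loci, those of different numbers at -0.44 to -0.03. The fit was also run on data simulated from the same model, with 200 changed loci. Of the 2-fold changes, 99% passed the adjusted p in the right direction. Among unchanged loci, 19 passed the adjusted p and 4 were called. The simulated data held the replicate term, so they cannot judge the choice of the block. Symbols and starts are RefSeq TAIR10.1 (97.7% of loci found), with some list symbols set from general knowledge.

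Named genes were the 4 PIF genes; the 12 largest changes each way among called loci of at least 5 CPM without overlap of libraries; up to 4 members per list by adjusted p; the 6 largest called changes with WT between the mutants in all 3 numbers, and the 6 with *pif3* farther from WT; *MRD1* and *EXT10*. Genes outside this rule (*CYS2*, *AFP3*, *LEA4-5*, *LEA7*, *RAB18*, *ABI5*, *GA2OX2*, *HEI10* and scarce list members) were chosen after their values were seen. Members, lists and the rule were chosen with earlier results of these data known. Alternatives covered the block, samples, scaling, DESeq2 1.42.0, a minimum-fold test, the filter and each left-out library.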

Additional observations from a re-analysis of the deposited data

Results flagged for a closer look

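At 6 genes among the largest called changes, *pif3* and *pif145* lay on opposite sides of WT in all 3 replicate numbers, and the difference between the mutants is the edgeR contrast itself. On the log2 scale of *pif145* over *pif3*, *QQS* differed by 4.86, *CHS* by 2.71 and *ELIP2* by 2.63, each below WT in *pif3* and above it in *pif145*. *EM1* differed by -3.09, *GA20OX3* by -2.997 and *AT1G16850*, an uncharacterized gene, by -2.53, each above WT in *pif3* and below it in *pif145*. In *AT1G16850* the libraries stood at 15.5, 19.8 and 22.1 CPM in *pif3*, 11.04, 12.3 and 16.5 CPM in WT and 2.45, 3.52 and 4.06 CPM in *pif145*. WT lay between the mutants in all 3 numbers at 24 of the 173 higher loci (13.9%) and at 72 of the 278 lower loci (25.9%), beside 4.4% of all loci. Called loci were chosen for a gap of at least 2-fold between the mutants, which leaves WT more room to lie between them. The share over all loci is therefore not a like comparison, and no conclusion is drawn from the excess. The 6 genes above were picked by size, so their changes are not independent evidence of the pattern.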

How the results depend on the processing

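Without the replicate block, 32 loci were called higher and 116 lower, all of them among the 173 and 278, and 42 of the 54 called named genes kept their call. A platform term in place of the number gave 101 higher, a minimum-fold test against 1.5 gave 77 higher, and keeping loci with 5 CPM or more in 3 libraries gave 50 higher and 146 lower. Leaving out libraries gave 115 to 179 higher and 224 to 283 lower, the lowest of each without the *pif145* library numbered 1. Of the 173 and 278 loci, 93 to 135 and 204 to 246 were among these calls. Other scalings, DESeq2, the 6 libraries alone and no filter stayed within 1.5 times. Of 54 called named genes, 39 kept direction and side in every one of the 19 settings that tested them, and 48 whichever library was left out. Only *FPF1*, not called, changed sign, with left-out libraries giving -0.085 to 0.63, -0.085 without replicate 3 and -0.078 without *pif145* replicate 3. Below 1 CPM, calls rest on few reads. P-values rest on the spread left among all 12 libraries, 3 per genotype, after genotype and replicate number are fitted, with 6 residual degrees of freedom. The common dispersion, edgeR's estimate of that spread over loci, was 0.00719 with the block and 0.0572 without it.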

Other observations

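Of 18 glucosinolate genes, 4 were called higher, beside 0.942% of all loci, and 0 lower. The count was 2 without the *pif145* library numbered 1, with a platform term or by the minimum-fold test, and 0 without the replicate block. Among the 4 was *ESM1*, an epithiospecifier modifier, at 0.658, 0.484 and 1.14 CPM in *pif3* and 4.75, 1.16 and 3.68 CPM in *pif145* (log2 2.06 ± 0.25, and adjusted p = 0.0946 without the replicate block), with a *pifq* mean of 32.6 CPM. Its libraries did not overlap, but all 4 were scarce in both mutants. *NSP5*, a nitrile specifier, stood at -0.79 ± 0.07, short of 2-fold. Of 21 ethylene genes 0 were called, 6 passed the adjusted p on the lower side, and *HLS1*, needed for the apical hook, differed by -0.71 ± 0.13. Of 20 SAUR and auxin synthesis genes 0 were called, with a median of -0.21.

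The 19 clock genes (median -0.19), 12 stomatal lineage genes (0.08) and 16 reference genes (-0.08) also had 0 calls by edgeR's test. At an adjusted p of 0.05, 3, 1 and 5 of them passed in either direction. Among the reference genes *TUB6* and *ACT2*, tubulin and actin genes used for normalization of PCR, passed it on the lower side at -0.46 ± 0.08 and -0.40 ± 0.08. Of 21 root hair genes 2 were called higher, *RSL2* and *EXT13*, both near 1 CPM, beside the lower *EXT10*. The count of higher genes was 1 by DESeq2, with a platform term, or without the library numbered 1 or 2 of either genotype, and 0 without the block or by the minimum-fold test.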
